A study of Homo sapiens with 22 samples.

Results

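A set of 41 genes for DNA replication and S phase was followed through 22 RNA-seq libraries of HT1080, a human fibrosarcoma cell line, out of 60675 genes in the count table. The set was given by gene symbol and covered origin licensing (ORC1, ORC6, CDC6, CDT1, MCM2 to MCM7), helicase activation (MCM10, CDC45, GINS1 to GINS4), the replicative polymerases and primase (POLA1, POLA2, PRIM1, PRIM2, POLD1, POLD3, POLE, POLE2), the sliding clamp, clamp loader and lagging strand enzymes (PCNA, RFC2 to RFC5, FEN1, LIG1), deoxynucleotide synthesis (RRM1, RRM2, TYMS, TK1), cyclin E and E2F1 (CCNE1, CCNE2, E2F1), and chromatin assembly and methylation maintenance behind the fork (CHAF1A, CHAF1B, UHRF1). All 41 symbols were found, and all 41 passed the filter on low counts in every comparison, so no member was lost. The lowest estimated count of any member in any library was 22, for POLE2 in KDAC6H611A replicate 2.

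In dividing cells the origin recognition complex, CDC6 and CDT1 load the MCM2-7 helicase onto DNA in G1, and cyclin E with CDK2 then helps to switch the helicase on as S phase begins. The helicase recruits CDC45 and the GINS complex, the primase and polymerase α start each strand, polymerases δ and ε extend them with PCNA, and the flap nuclease FEN1 and ligase LIG1 join the lagging strand. Many of these genes are transcribed together at the G1/S boundary by E2F factors, so their RNA levels are commonly read as a sign of how many cells are about to enter or are passing through S phase. In bulk RNA, fewer cells in S phase and less of these RNAs per cell cannot be told apart.

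The study asked what is lost when a lysine deacetylase, KDAC6 or KDAC8 (also called HDAC6 and HDAC8), is present but catalytically dead, and whether small-molecule inhibitors have the same effect. Untreated wild-type HT1080 cells (WT, n = 4) were set beside 3 lines in which a catalytic histidine had been changed to alanine at the endogenous gene: KDAC6H216A (first catalytic domain, n = 4), KDAC6H611A (second catalytic domain, n = 4) and KDAC8H143A (n = 4). WT cells were also treated for 2 days with 1 µM Tubastatin A, sold as a KDAC6 inhibitor (n = 3), or with 5 µM PCI-34051, sold as a KDAC8 inhibitor (n = 3). The lines were made with CRISPR/Cas9 and grown up from single colonies, and the methods describe the KDAC6H216A sample as a pool of 3 independent clones. No pool is described for KDAC6H611A or KDAC8H143A. In those lines the mutation and other properties of the clone cannot be told apart. The labels give WT as untreated and name no vehicle.

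Estimated counts per library summed to between 5248960 and 8998521 in WT, 6837484 and 11737887 in KDAC6H216A, 7324549 and 12752476 in KDAC6H611A, 11010779 and 17170493 in KDAC8H143A, 28394248 and 29862658 with Tubastatin A, and 24315844 and 28676574 with PCI-34051. Mitochondrial rRNA took 20.8 to 23.9% of the counts in WT but at most 0.0259% in KDAC8H143A and at most 0.00541% with either inhibitor. Within the KDAC6 lines 1 library of each stood apart in this share, KDAC6H216A replicate 1 at 0.195% and KDAC6H611A replicate 4 at 0.173%, where the other libraries of those lines held 13.1 to 37.98%. Counts of members called in these lines are given with and without them, and values of genes outside the set only with them. The labelled cell type was checked on mesenchymal and epithelial markers: VIM stood at 2083 to 4681 CPM (the CPM unit of edgeR, a count as a share of its library's scaled total) in all groups and FN1 at 176 CPM or more, whereas EPCAM, CDH1, KRT19 and ESRP1 stayed below 1 CPM in every library. KRT8 and KRT18, usually epithelial keratins, were expressed at 95.3 to 253 CPM, and the mesenchymal marker S100A4 lay below 1 CPM in every KDAC8H143A and inhibitor library.

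Levels are given as CPM after scaling by the trimmed mean of M values (TMM), which sets the bulk of genes level across the 22 libraries. Differences are log2 fold changes with their standard errors (SE) from edgeR's quasi-likelihood test on the 2 groups compared, and a gene counts as called where its p, adjusted over all genes tested by the Benjamini-Hochberg method, is below 0.01. Per kilobase of transcript, MCM7 was the most abundant member in WT (95.8 CPM per kb), followed by PCNA (79.7) and FEN1 (62.5), and the cyclin genes CCNE1 (3.01) and CCNE2 (4.59) and the polymerase ε subunit POLE2 (3.88) were the least abundant.

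The promoters of 36 members were read from RefSeq as windows of 250 bases before to 50 bases after each start (GRCh38.p14), and MCM4, MCM5, GINS4, CCNE2 and POLD3 had no window in the table. At least 1 of the E2F-type words TTTCCCGC, TTTGGCGC, TTTCGCGC and TTTGCCGC, searched on both strands, stood in the windows of 19 of the 36 members (52.8%), against 3.99% of all 27305 genes with a window and 6.53% of 10163 such genes expressed well enough to be tested. The shorter word CCAAT, also on both strands, stood in 21 of the 36 (58.3%), against 39.7% of all genes. The windows of 6 genes are shown because their genes carry the contrasts described further on, with the E2F-type words in capitals. MCM6 (chr2:135876394-135876693, minus strand) held the most words, as a pair of overlapping matches at each of 2 positions. E2F1 (chr20:33686336-33686635, minus strand) held 2 words and CDC6 (chr17:40287629-40287928, plus strand) held 1, in its transcribed part. POLE (chr12:132687293-132687592, minus strand) and RFC3 (chr13:33817899-33818198, plus strand) held 1 word each. None of these exact letters stood in the window of ORC1 (chr1:52404374-52404673, minus strand), which draws no line about the factors that bind there.
MCM6: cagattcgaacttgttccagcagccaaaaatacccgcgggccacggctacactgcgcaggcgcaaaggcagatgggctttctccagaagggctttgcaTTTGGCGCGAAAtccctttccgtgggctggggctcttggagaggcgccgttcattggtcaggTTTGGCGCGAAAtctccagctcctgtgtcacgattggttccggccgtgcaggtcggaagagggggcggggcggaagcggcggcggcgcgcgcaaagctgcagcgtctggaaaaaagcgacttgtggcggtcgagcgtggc
E2F1: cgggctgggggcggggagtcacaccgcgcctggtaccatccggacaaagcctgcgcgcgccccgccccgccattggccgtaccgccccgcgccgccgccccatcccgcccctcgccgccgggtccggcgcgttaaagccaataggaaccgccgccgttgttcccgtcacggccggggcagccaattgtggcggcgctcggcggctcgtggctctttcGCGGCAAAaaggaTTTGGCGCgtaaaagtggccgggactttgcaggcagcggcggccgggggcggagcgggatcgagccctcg
CDC6: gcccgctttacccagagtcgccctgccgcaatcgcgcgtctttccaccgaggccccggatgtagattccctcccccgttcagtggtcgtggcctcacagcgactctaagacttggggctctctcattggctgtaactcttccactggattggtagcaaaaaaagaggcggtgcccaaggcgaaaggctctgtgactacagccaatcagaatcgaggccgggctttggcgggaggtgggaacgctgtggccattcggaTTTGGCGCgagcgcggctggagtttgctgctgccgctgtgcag
POLE: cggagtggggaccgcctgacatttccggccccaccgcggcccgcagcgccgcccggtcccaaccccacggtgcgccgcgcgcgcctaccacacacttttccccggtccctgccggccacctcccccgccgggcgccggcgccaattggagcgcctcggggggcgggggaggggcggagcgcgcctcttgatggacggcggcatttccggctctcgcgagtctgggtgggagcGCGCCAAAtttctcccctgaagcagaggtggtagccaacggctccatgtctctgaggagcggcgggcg
RFC3: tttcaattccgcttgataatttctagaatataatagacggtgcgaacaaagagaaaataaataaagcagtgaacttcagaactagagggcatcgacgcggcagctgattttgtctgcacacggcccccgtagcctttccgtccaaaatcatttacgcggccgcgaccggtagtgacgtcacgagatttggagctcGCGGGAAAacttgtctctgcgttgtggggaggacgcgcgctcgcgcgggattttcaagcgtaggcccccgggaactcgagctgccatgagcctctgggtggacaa
ORC1: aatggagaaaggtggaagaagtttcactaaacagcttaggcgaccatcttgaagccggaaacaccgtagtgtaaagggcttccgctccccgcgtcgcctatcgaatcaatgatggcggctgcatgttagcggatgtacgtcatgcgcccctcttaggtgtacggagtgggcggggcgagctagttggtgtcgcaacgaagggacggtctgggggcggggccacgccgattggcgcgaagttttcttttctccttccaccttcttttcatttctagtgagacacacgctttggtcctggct

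Most of the 41 genes were lower with either inhibitor under TMM scaling, while KDAC8H143A had rises and falls and the KDAC6 lines few calls. Against WT, 35 members fell and 1 rose with Tubastatin A, where 57.9% of all genes tested were called in either direction (29.3% higher and 28.6% lower). With PCI-34051, 34 fell and none rose, where 51.1% of all genes were called (25.5% higher and 25.6% lower). In KDAC8H143A 7 members rose and 16 fell, where 58.5% of all genes were called (31.6% higher and 26.9% lower), so the share of members called (56.1%) was close to that of all genes. In KDAC6H611A 2 members fell and none rose, where 12.3% of all genes were called (6.24% lower), and in KDAC6H216A none was called, where 0.834% of all genes were. The same WT libraries entered all 5 comparisons, so their counts are not independent of each other.

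**Figure D1:**
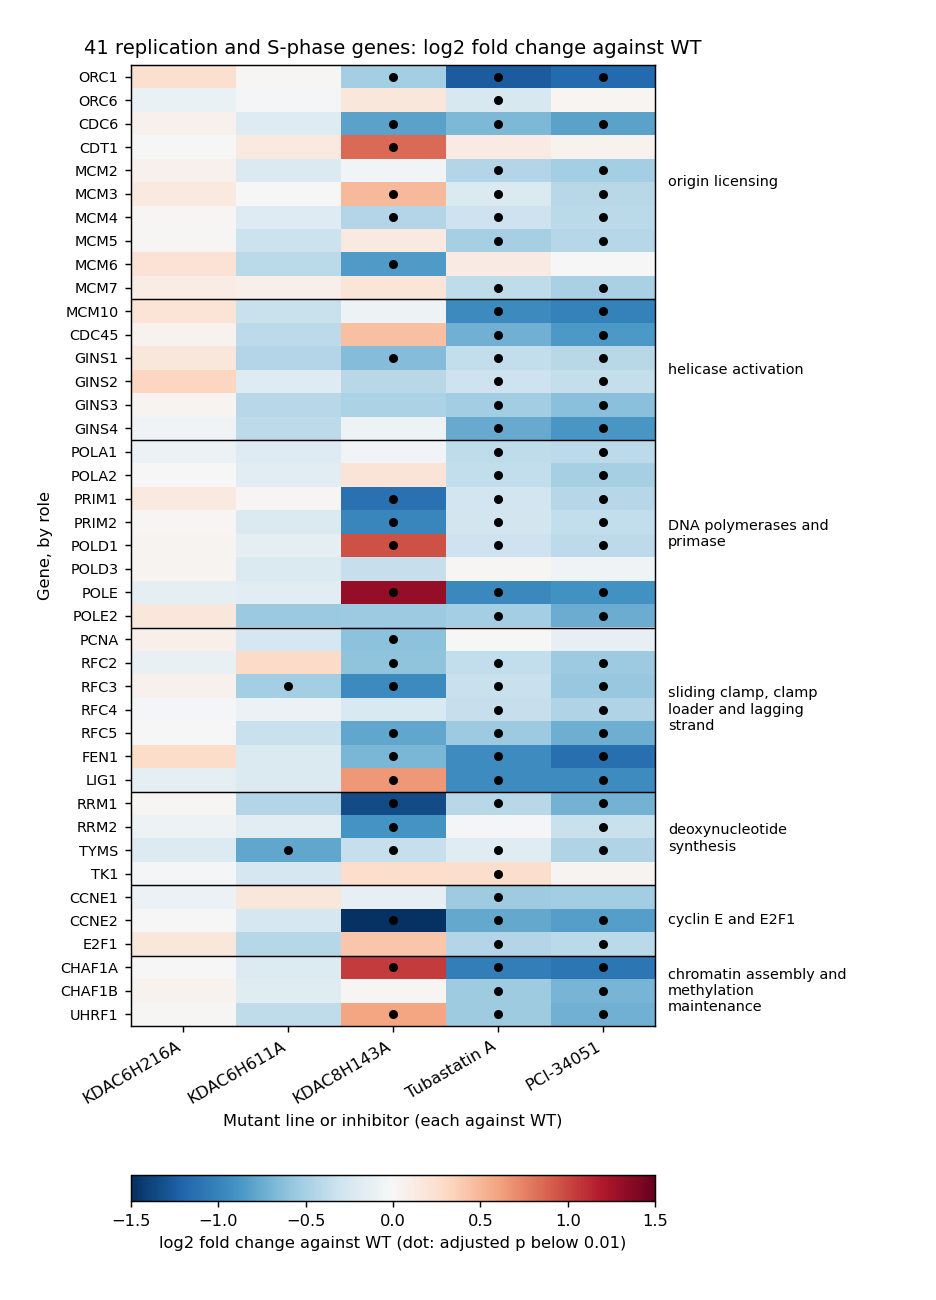
Log2 fold change against WT of each of the 41 genes (rows, ordered by role) in the 3 mutant lines and with the 2 inhibitors (columns), with red for higher and blue for lower and a black dot for an adjusted p below 0.01. The 2 inhibitor columns are blue in nearly every row under TMM scaling (under total counts 7 and 6 of the genes were called higher), the KDAC8H143A column holds 7 called rises and 16 called falls, and the 2 KDAC6 columns hold 2 dots between them.

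The median log2 fold change of the members was -0.38 with Tubastatin A and -0.50 with PCI-34051, while the median of all genes tested was -0.0029 and -0.0071. The 3 Tubastatin A libraries all lay below the 4 WT libraries for 29 members (24.1% of all genes did so), and the 3 PCI-34051 libraries for 32 members (22.9% of all genes). These directions depend on the scaling, because inhibitor and WT libraries differ in composition: scaled by total count alone, the median of all genes moved to 0.35 and 0.38. The members then split into 7 higher and 11 lower with Tubastatin A (51.9% and 12.1% of all genes) and 6 higher and 14 lower with PCI-34051 (51.4% and 9.62% of all genes). ORC1, CDC6, MCM10, CDC45, GINS4, POLE, FEN1, LIG1, CCNE2, CHAF1A and UHRF1 were called lower with both inhibitors under either scaling, and RFC5, RRM1 and CHAF1B with PCI-34051 under either scaling. No other member that fell with an inhibitor was called lower under total counts. Relative to the median of all genes the members stood 0.38 and 0.49 lower under total counts, and 0.38 and 0.49 lower under TMM. A change of scaling moves all genes by nearly the same amount. This gap could therefore hardly differ, and it does not decide between the scalings. A single fit of all 6 groups called 9 and 13 members lower and none higher, in place of 36 and 34 calls, where 8.71% and 8.88% of all genes were called lower. The inhibitor libraries were the deepest and held almost no mitochondrial rRNA, and treatment and these library properties cannot be told apart against WT.

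Of the origin licensing genes, 8 of 10 fell with Tubastatin A, 7 of 10 fell with PCI-34051, and 2 rose and 4 fell in KDAC8H143A, under TMM scaling. Of all genes, 28.6% and 25.6% fell with the inhibitors, and 31.6% rose and 26.9% fell in KDAC8H143A. ORC1, the largest subunit of the origin recognition complex, stood at 22.5, 28.5, 26.6 and 25.3 CPM in WT, 11.6, 12.5 and 11.5 CPM with Tubastatin A and 13.8, 13.97 and 9.30 CPM with PCI-34051. Every treated library lay below every WT library, and the log2 fold changes were the largest falls of the set, -1.24 ± 0.082 (SE, adjusted p = 1.19e-10) and -1.17 ± 0.12 (adjusted p = 2.35e-07). KDAC8H143A held 16.2, 20.7, 14.3 and 18.7 CPM of ORC1, also below WT (-0.51 ± 0.13, adjusted p = 0.00496). CDC6, the loader that ORC recruits, followed the same course: 41.6, 50.6, 52.4 and 49.4 CPM in WT came down to 26.5, 24.98, 25.8 and 30.3 CPM in KDAC8H143A (-0.80 ± 0.11, adjusted p = 5.27e-05). With the inhibitors it read 32.3, 32.7 and 34.8 CPM (Tubastatin A, -0.67 ± 0.060, adjusted p = 1.04e-08) and 30.9, 30.3 and 28.5 CPM (PCI-34051, -0.81 ± 0.064, adjusted p = 8.87e-09). None of these CDC6 values overlapped WT.

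CDT1, the partner of CDC6 in helicase loading, went the other way in KDAC8H143A, but not after a correction for GC content and length (-0.14, not called). It stood at 35.0, 39.4, 37.6 and 44.6 CPM in WT and at 63.2, 60.4, 74.4 and 75.6 CPM in KDAC8H143A (0.85 ± 0.11, adjusted p = 5.00e-05), and it was not called with Tubastatin A (0.12 ± 0.065, adjusted p = 0.112) or PCI-34051 (0.05 ± 0.068, adjusted p = 0.557). The 6 subunits of the MCM2-7 ring, which work as 1 complex, did not move as 1 block. MCM3 rose in KDAC8H143A, from 107 to 119 CPM in WT to 165, 129, 166 and 163 CPM (0.49 ± 0.11, adjusted p = 0.00147), while MCM6 fell from 56.1, 68.5, 68.4 and 65.6 CPM to 29.3, 36.9, 37.9 and 34.1 CPM (-0.85 ± 0.11, adjusted p = 3.28e-05) and MCM4 fell by less (-0.44 ± 0.090, adjusted p = 0.000968). MCM2, MCM5 and MCM7 were not called there, with log2 fold changes of -0.04, 0.14 and 0.18.

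With the inhibitors the ring was lower in 5 of its 6 subunits, and MCM6 was the exception. MCM2, MCM3, MCM4, MCM5 and MCM7 fell with log2 fold changes between -0.49 (MCM5) and -0.21 (MCM3) for Tubastatin A and between -0.51 (MCM2) and -0.40 (MCM4) for PCI-34051, all past the threshold. Under total counts none of these 5 was called with either inhibitor, and with Tubastatin A MCM3 and MCM4 read 0.14 and 0.04. MCM6 stood at 73.4, 75.6 and 81.1 CPM with Tubastatin A and at 74.6, 76.2 and 59.8 CPM with PCI-34051, against 56.1 to 68.5 CPM in WT, and was not called (0.12 ± 0.050, adjusted p = 0.0391, and 0.01 ± 0.075, adjusted p = 0.912). Under total counts alone MCM6 was called higher with both (0.47 and 0.40), as was CDT1 (0.47 and 0.44). ORC6, a small origin recognition subunit, fell with Tubastatin A (-0.24 ± 0.064, adjusted p = 0.0024) and not with PCI-34051 (0.03 ± 0.075, adjusted p = 0.747). Under total counts it was not called with Tubastatin A (0.11) and was called higher with PCI-34051 (0.42).

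Under TMM scaling all 6 helicase activation genes fell with both inhibitors, where 28.6% and 25.6% of all genes fell. MCM10, which helps to set the loaded helicase in motion, fell furthest. Its WT levels of 53.6, 55.8, 61.8 and 61.5 CPM compare with 31.3, 34.4 and 32.3 CPM for Tubastatin A (-0.95 ± 0.058, adjusted p = 3.75e-11) and 33.2, 30.4 and 29.0 CPM for PCI-34051 (-1.02 ± 0.064, adjusted p = 4.54e-10), with no overlap. CDC45, which rides with the MCM ring as part of the active helicase, fell by 0.72 and 0.86 on the log2 scale, and GINS4 by 0.76 and 0.87. GINS1, GINS2 and GINS3, the other subunits of the GINS complex, fell by 0.31 to 0.63. Under total counts none of them was called with either inhibitor, and GINS2 read 0.04 with Tubastatin A and 0.03 with PCI-34051. In KDAC8H143A only GINS1 was called among the 6 (-0.65 ± 0.15, adjusted p = 0.00228), from 22.8, 25.1, 25.9 and 26.9 CPM in WT to 14.7, 20.2, 12.1 and 14.7 CPM. CDC45 read 0.45 ± 0.16 there (adjusted p = 0.0227) and MCM10 -0.08 ± 0.11 (adjusted p = 0.568).

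Among the polymerase genes the catalytic subunit of polymerase ε, POLE, which copies the leading strand, showed the widest range of the set. POLE stood at 118, 122, 118 and 117 CPM in WT, and at 320, 203, 258 and 363 CPM in KDAC8H143A. With Tubastatin A it stood at 65.9, 68.5 and 63.6 CPM, and with PCI-34051 at 72.7, 62.9 and 68.8 CPM. The 3 ranges did not overlap that of WT, and the log2 fold changes were 1.32 ± 0.16 in KDAC8H143A (adjusted p = 2.66e-05), -0.96 ± 0.048 with Tubastatin A (adjusted p = 2.03e-12) and -0.91 ± 0.058 with PCI-34051 (adjusted p = 4.72e-10). POLD1, the catalytic subunit of polymerase δ, rose in KDAC8H143A from 82.9, 92.2, 85.7 and 98.4 CPM to 164, 125, 177 and 207 CPM (0.96 ± 0.14, adjusted p = 0.000116), and fell with both inhibitors by 0.31 and 0.40 on the log2 scale. Under total counts POLD1 was not called with either inhibitor. Its partner POLD3 was the only member called in none of the 5 comparisons with WT, although under total counts it was called higher with Tubastatin A (0.36) and with PCI-34051 (0.34).

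The primase subunits fell where these catalytic subunits rose, in KDAC8H143A. With a correction for GC content and length, given further on, this contrast held only in part. POLD1 (-0.15) and PRIM1 (-0.28) were then not called, while POLE (0.69) and PRIM2 (-0.33) stayed called. PRIM1, the subunit that lays the RNA primer, came down from 25.9, 27.5, 24.6 and 29.1 CPM in WT to 11.0, 14.2, 8.83 and 13.3 CPM in KDAC8H143A (-1.12 ± 0.15, adjusted p = 5.41e-05). PRIM2, its large partner, came down from 38.9, 45.3, 46.1 and 43.7 CPM to 21.1, 26.1, 17.9 and 19.9 CPM (-0.98 ± 0.12, adjusted p = 3.36e-05). Neither gene overlapped WT in that line. Both also fell with the inhibitors, PRIM1 by 0.29 and 0.43 and PRIM2 by 0.27 and 0.37 on the log2 scale. Under total counts neither was called with either inhibitor. The polymerase α subunits POLA1 and POLA2 and the polymerase ε subunit POLE2 fell with both inhibitors, by 0.37 to 0.74, and were not called in KDAC8H143A. None of POLA1, POLA2 and POLE2 was called with either inhibitor under total counts.

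**Figure D2:**
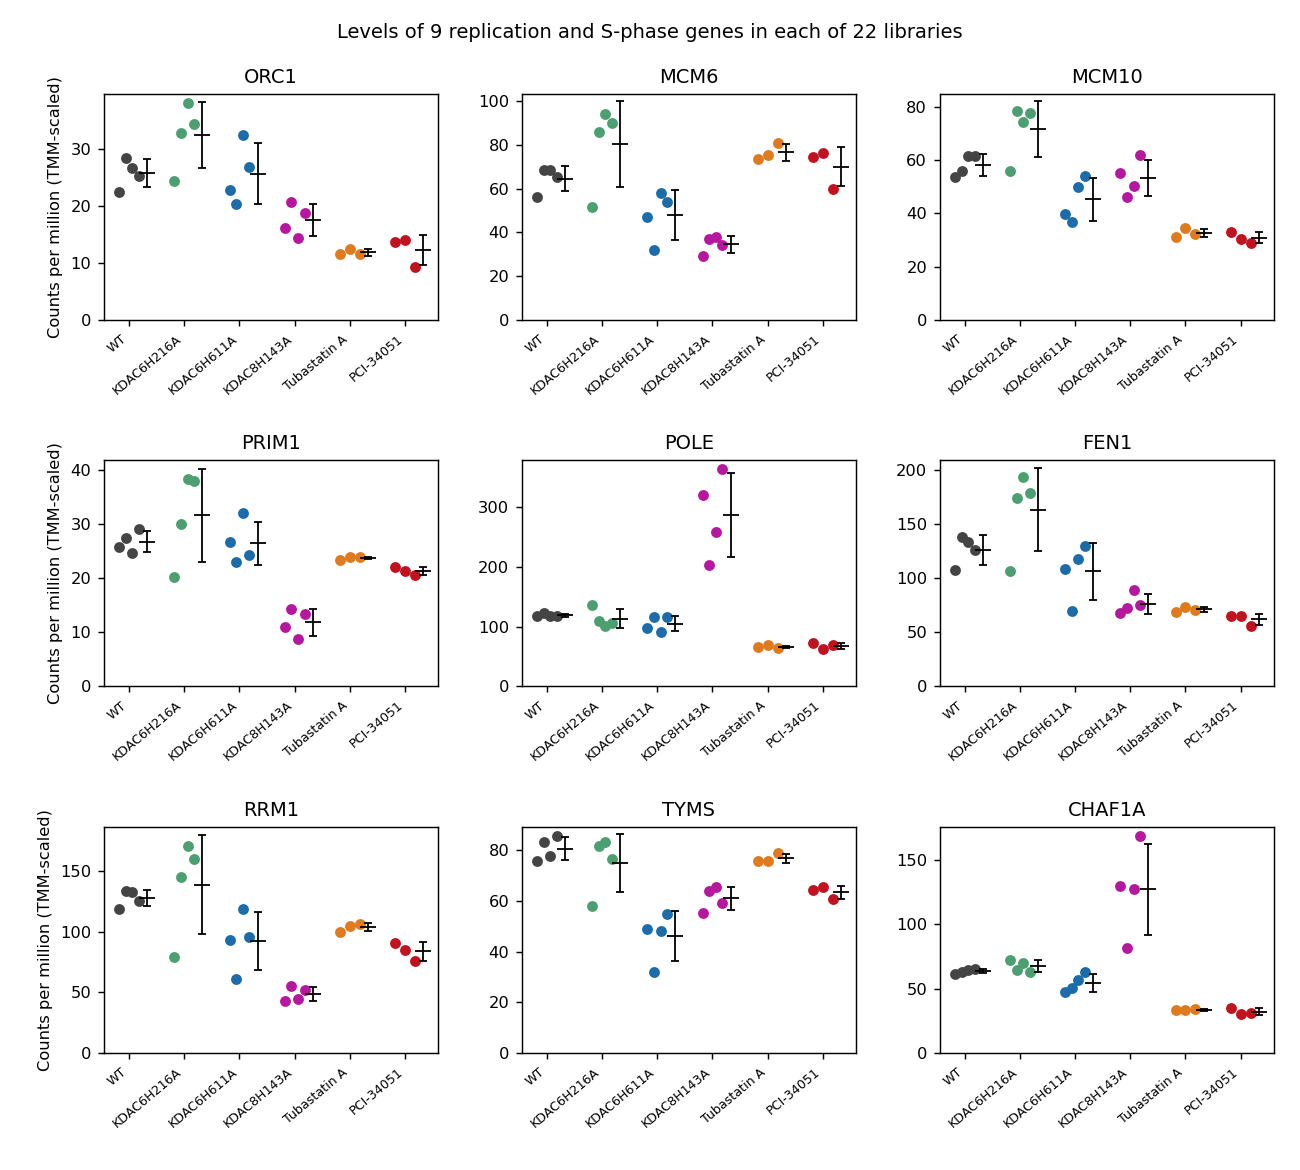
CPM (TMM-scaled, linear axes from 0) of 9 of the genes in each of the 22 libraries, with 1 dot per library, groups along the horizontal axis, and the group mean with 1 SD drawn in black to the right of the dots. POLE and CHAF1A stand above WT in KDAC8H143A and below WT with both inhibitors, while PRIM1, RRM1 and MCM6 have their lowest group in KDAC8H143A, and TYMS in KDAC6H611A.

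At the lagging strand, FEN1, which trims the flaps left by primers, stood at 107, 138, 133 and 126 CPM in WT, 69.1, 73.5 and 70.8 CPM with Tubastatin A, 64.7, 65.3 and 56.2 CPM with PCI-34051 and 67.8, 72.4, 88.7 and 74.9 CPM in KDAC8H143A. All of these treated and mutant libraries lay below WT, by -0.95 ± 0.057 (adjusted p = 3.28e-11), -1.13 ± 0.066 (adjusted p = 1.56e-10) and -0.68 ± 0.11 (adjusted p = 0.000196) on the log2 scale. LIG1, which seals the nicks, also fell with Tubastatin A (38.2, 35.6 and 35.9 CPM, -0.94 ± 0.050, adjusted p = 6.02e-12) and with PCI-34051 (36.5, 36.2 and 35.8 CPM, -0.94 ± 0.053, adjusted p = 8.90e-11), from 60.6, 66.2, 66.0 and 65.7 CPM in WT. In KDAC8H143A LIG1 was higher at 99.4, 61.8, 93.1 and 137 CPM, with 1 library inside the WT range (0.65 ± 0.19, adjusted p = 0.00997).

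PCNA, the sliding clamp that these enzymes and the polymerases ride on, was not called with either inhibitor (-0.0016 ± 0.062, adjusted p = 0.983, and -0.12 ± 0.072, adjusted p = 0.164), and fell in KDAC8H143A from 86.5, 112, 113 and 94.96 CPM to 57.2, 66.6, 69.4 and 63.0 CPM (-0.62 ± 0.11, adjusted p = 0.000321). Under total counts PCNA was called higher with Tubastatin A (0.35, adjusted p = 0.000117) and with PCI-34051 (0.27, adjusted p = 0.0054). The clamp loader subunits RFC2 to RFC5 fell with both inhibitors. The falls were -0.36, -0.33, -0.35 and -0.55 with Tubastatin A and -0.54, -0.57, -0.45 and -0.73 with PCI-34051. Under total counts the only one of these calls that held was that of RFC5 with PCI-34051. In KDAC8H143A RFC2 (-0.60 ± 0.094, adjusted p = 0.00014), RFC3 (-0.95 ± 0.14, adjusted p = 8.44e-05) and RFC5 (-0.77 ± 0.12, adjusted p = 0.000183) fell and RFC4 was not called. RFC3 was 1 of only 2 members called in 4 of the 5 comparisons with WT, at 41.6, 46.9, 45.3 and 39.1 CPM in WT and 21.5, 27.6, 18.8 and 18.2 CPM in KDAC8H143A.

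The deoxynucleotide genes were the group in which the inhibitors differed most from each other. RRM1, the large subunit of ribonucleotide reductase, which makes the deoxynucleotides, stood at 119, 133, 133 and 125 CPM in WT, 42.8, 54.9, 44.7 and 52.0 CPM in KDAC8H143A, 99.7, 105 and 107 CPM with Tubastatin A and 90.5, 84.9 and 75.6 CPM with PCI-34051. The log2 fold changes were -1.34 ± 0.10 (adjusted p = 1.30e-06), -0.41 ± 0.047 (adjusted p = 2.71e-07) and -0.71 ± 0.058 (adjusted p = 1.11e-08), with no library inside the WT range. Its small subunit RRM2 fell in KDAC8H143A (-0.90 ± 0.092, adjusted p = 7.72e-06) and with PCI-34051 (-0.33 ± 0.068, adjusted p = 0.000409), and not with Tubastatin A (-0.03 ± 0.048, adjusted p = 0.582). TYMS, thymidylate synthase, fell in KDAC8H143A (-0.35 ± 0.092, adjusted p = 0.0047), with Tubastatin A (-0.19 ± 0.047, adjusted p = 0.00178) and with PCI-34051 (-0.45 ± 0.055, adjusted p = 1.80e-06). Under total counts the Tubastatin A call of TYMS reversed to higher (0.17, adjusted p = 0.00614), RRM2 was also called higher with Tubastatin A (0.32), and neither was called with PCI-34051. RRM1 was then called lower with PCI-34051 and not called with Tubastatin A. TK1, the salvage enzyme thymidine kinase, was the only member called higher with an inhibitor under TMM, from 40.5, 45.2, 40.2 and 43.0 CPM in WT to 52.7, 54.4 and 58.3 CPM with Tubastatin A (0.27 ± 0.056, adjusted p = 0.000323).

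Cyclin E2 (CCNE2) had the largest fall of the set in KDAC8H143A. Its levels of 13.7, 11.4, 12.8 and 11.3 CPM in WT came down to 4.76, 6.05, 3.20 and 2.70 CPM (-1.48 ± 0.24, adjusted p = 0.000171), and to 8.37, 8.04 and 6.83 CPM with Tubastatin A (-0.76 ± 0.12, adjusted p = 2.06e-05) and 8.66, 6.84 and 6.69 CPM with PCI-34051 (-0.82 ± 0.14, adjusted p = 4.98e-05). CCNE2 shares 37.0% of its exonic bases with INTS8 on the opposite strand and the counting used no strand, so part of its reads may be of INTS8. Cyclin E1 (CCNE1) fell with Tubastatin A (-0.53 ± 0.17, adjusted p = 0.00858) and just missed the threshold with PCI-34051 (-0.52 ± 0.17, adjusted p = 0.0131). E2F1, the transcription factor, fell with both (-0.44 ± 0.077, adjusted p = 4.72e-05, and -0.40 ± 0.092, adjusted p = 0.00111) and was not called in KDAC8H143A (0.42 ± 0.15, adjusted p = 0.0253). Under total counts neither CCNE1 nor E2F1 was called with either inhibitor.

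CHAF1A, the large subunit of the chromatin assembly factor that places histones behind the fork, repeated the course of POLE. It stood at 61.6, 62.8, 64.4 and 65.4 CPM in WT, 130, 81.6, 128 and 169 CPM in KDAC8H143A, 33.1, 33.4 and 34.5 CPM with Tubastatin A and 35.0, 30.1 and 31.2 CPM with PCI-34051. No library of these 3 groups fell inside the WT range, and the log2 fold changes were 1.05 ± 0.18 (adjusted p = 0.000284), -1.03 ± 0.049 (adjusted p = 1.18e-12) and -1.09 ± 0.063 (adjusted p = 1.48e-10). UHRF1, which guides maintenance DNA methylation, was likewise higher in KDAC8H143A (0.59 ± 0.14, adjusted p = 0.00233) and lower with Tubastatin A (-0.53 ± 0.053, adjusted p = 4.62e-08) and PCI-34051 (-0.71 ± 0.060, adjusted p = 1.77e-08). CHAF1A and UHRF1 lie on chromosome 19, where the median of all genes tested in KDAC8H143A was 0.59. CHAF1B, the middle subunit of the assembly factor, fell with both inhibitors by 0.53 and 0.70 and was not called in KDAC8H143A (0.01 ± 0.12, adjusted p = 0.934). Under total counts its call held with PCI-34051 and not with Tubastatin A.

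Set side by side, 33 members fell with both inhibitors. Of these, 13 also fell in KDAC8H143A, 14 were not called there, and 6 rose there: MCM3, POLD1, POLE, LIG1, CHAF1A and UHRF1. Of all genes, 28.6% and 25.6% fell with the inhibitors, and 31.6% rose and 26.9% fell in KDAC8H143A. The share of all genes in each joint pattern was not counted. These counts hold under TMM scaling, and fewer members were called lower with both inhibitors under total counts. With the correction for GC content and length, POLD1, LIG1 and UHRF1 were no longer called in KDAC8H143A. The counts for members with an E2F-type word in the window and those without are given side by side, with no test of the difference: 16 of 19 with a word and 15 of 17 without fell with Tubastatin A, and 16 of 19 and 14 of 17 fell with PCI-34051. In KDAC8H143A 5 of the 19 with a word rose and 6 fell, and 2 of the 17 without rose and 8 fell.

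The direction in KDAC8H143A moved with base composition. Over the 41 members the log2 fold change and the GC content of the transcript had a Pearson r of 0.815, and over 15897 genes tested r was 0.521, with medians of -0.73, -0.19, 0.35 and 0.96 in 4 equal groups of genes from the lowest to the highest GC. The 7 members that rose had 51.7 to 64.8% GC and the 16 that fell 34.6 to 52.6%. With PCI-34051 the same r over the members was 0.0067, and with Tubastatin A it was -0.067. These r values describe genes, which share libraries and are not replicates. Of the 7 members that rose in KDAC8H143A, POLD1, LIG1, CHAF1A and UHRF1 lie on chromosome 19 and CDT1 on chromosome 16. The medians of all genes tested there in this line were 0.59 and 0.63. POLE lies on chromosome 12 (median 0.02) and MCM3 on chromosome 6 (median -0.39), where PRIM2, which fell, also lies.

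**Figure D3:**
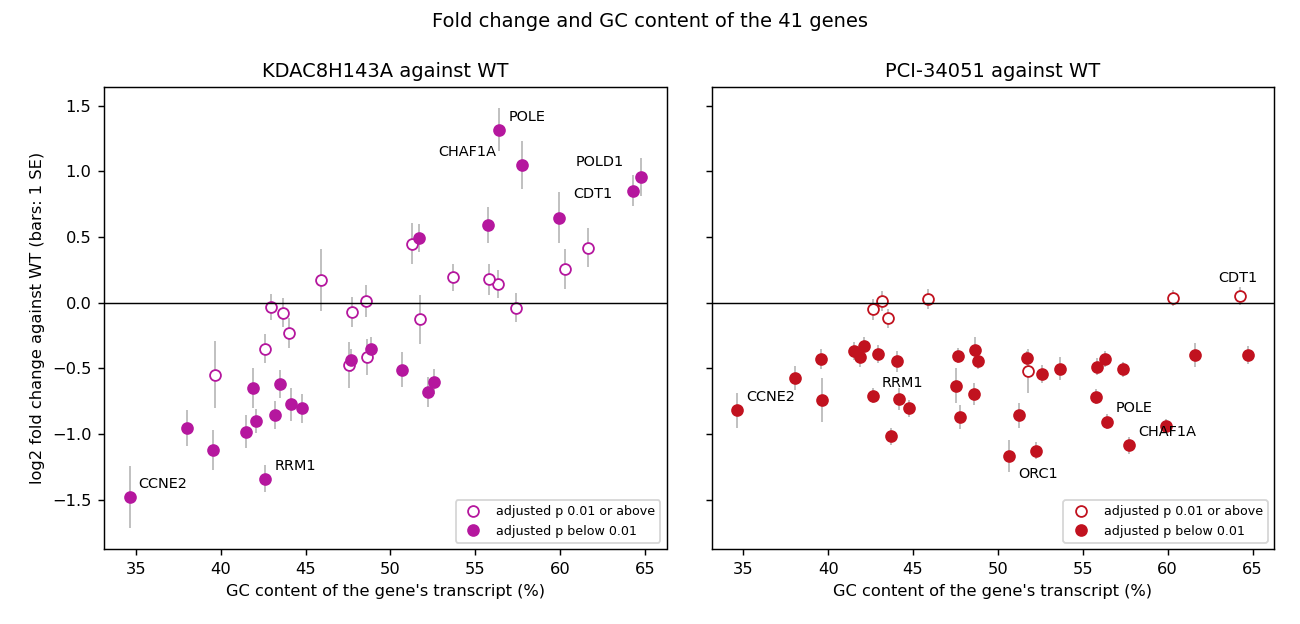
Log2 fold change against WT (vertical axis, bars of 1 SE) and GC content of the transcript in percent (horizontal axis) for the 41 genes in KDAC8H143A (left) and with PCI-34051 (right), with filled dots for an adjusted p below 0.01. The KDAC8H143A points climb from CCNE2 at -1.48 to POLE at 1.32 with rising GC, while the PCI-34051 points lie in a level band, with 37 of 41 below 0 under TMM scaling.

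A correction of the KDAC8H143A fit for GC content and length left 4 members higher and 14 lower, where 26.7% of all genes were called higher and 21.1% lower. POLE (0.69 ± 0.12, adjusted p = 0.000288), CHAF1A (0.42 ± 0.12, adjusted p = 0.00991) and MCM3 (0.30 ± 0.089, adjusted p = 0.00989) were called higher before and after it. RRM1 (-0.81 ± 0.093), FEN1 (-0.88 ± 0.096), RFC2 (-0.81 ± 0.092), ORC1, CDC6, MCM4, MCM6, PRIM2 and TYMS were called lower before and after it. CDT1, POLD1 and LIG1 changed sign (-0.14, -0.15 and -0.09) and were no longer called, and CCNE2, PRIM1, RFC3, RFC5, GINS1, PCNA, RRM2 and UHRF1 lost the call. MCM2, MCM5, MCM7, E2F1 and TK1 were called lower and POLA1 higher only after it. Scaled by total count alone, without this correction, KDAC8H143A had 13 members higher and 9 lower (40.3% and 15.5% of all genes), with the median of all genes at 0.36. Whether GC content, library composition, the clone or the mutation set these differences was not tested.

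In KDAC6H611A 34 of the 41 members had a log2 fold change below 0 and the median was -0.22, beside 0.03 for all genes, but only TYMS and RFC3 passed the threshold. At an unadjusted p below 0.05 there were 18 members, where 34.2% of all genes passed. TYMS stood at 48.9, 31.9, 48.2 and 55.0 CPM in KDAC6H611A against 75.9, 83.3, 77.7 and 85.6 CPM in WT, with no overlap (-0.78 ± 0.13, adjusted p = 0.000805). RFC3 stood at 31.3, 26.9, 32.5 and 28.1 CPM against 41.6, 46.9, 45.3 and 39.1 CPM, again with no overlap (-0.51 ± 0.096, adjusted p = 0.00218). TYMS lies on chromosome 18, where the median of all genes tested in this line was -0.76, and RFC3 on chromosome 13, where it was -0.43, so neither gene stood far from the genes around it. TYMS also shares 39.9% of its exonic bases with ENOSF1 on the opposite strand. The groups did not overlap, with KDAC6H611A lower, for 13 members, where 13.7% of all genes did so.

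Without KDAC6H611A replicate 4, the library with little mitochondrial rRNA, 4 members were called lower, where 5.57% of all genes were called lower: TYMS (-0.87), E2F1 (-0.57), UHRF1 (-0.50) and RFC3 (-0.48). KDAC6H611A replicate 2 held the least of the set, with 37 of the 41 members below every WT library. The summed level of the 41 genes was 1826 to 2508 CPM in KDAC6H611A and 2443 to 2722 CPM in WT.

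In KDAC6H216A edgeR called 0 members and DESeq2, which called 2.53% of all genes, also called 0, with 6 members at an unadjusted p below 0.05 (13.4% of all genes) and log2 fold changes from -0.20 (TYMS) to 0.32 (GINS2). The libraries of this line went opposite ways. In replicate 1, with 0.195% mitochondrial rRNA, 26 members lay below every WT library and 5 above, and in replicates 2, 3 and 4 between 22 and 34 members lay above every WT library and at most 2 below. PCNA shows the split, at 67.5 CPM in replicate 1 and 127, 135 and 130 CPM in the others, beside 86.5 to 113 CPM in WT. Without replicate 1, 8 members were called higher and 2 lower, where 12.2% and 13.8% of all genes were. The largest rises were FEN1 (0.39 ± 0.061, adjusted p = 7.33e-05), GINS2 (0.37 ± 0.10, adjusted p = 0.0081), MCM6 (0.33 ± 0.058, adjusted p = 0.000197) and ORC1 (0.30 ± 0.081, adjusted p = 0.00596). POLE (-0.31 ± 0.057, adjusted p = 0.000296) and ORC6 (-0.31 ± 0.084, adjusted p = 0.00683) were lower.

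**Figure D4:**
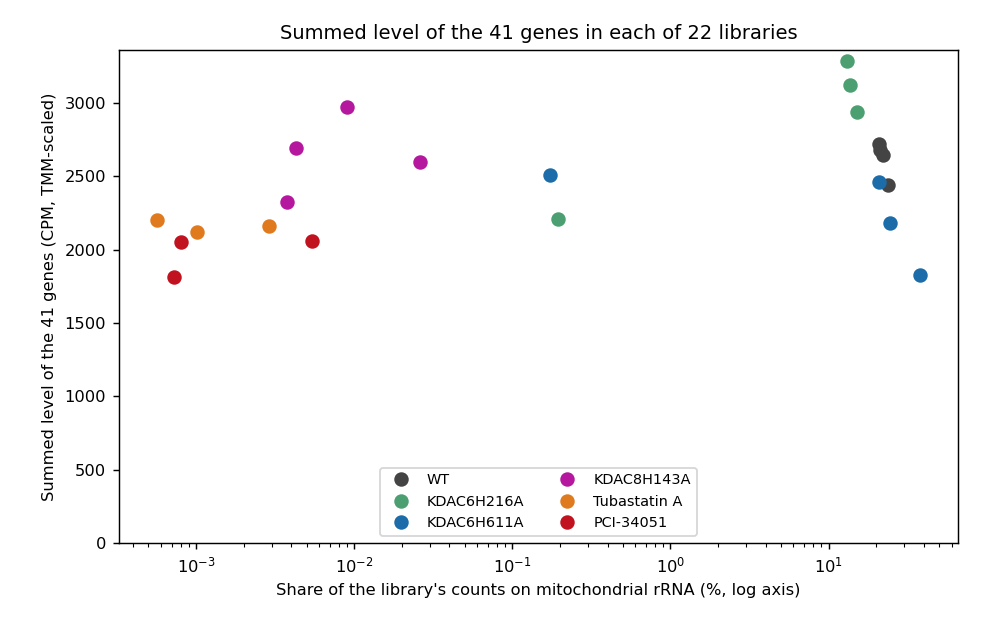
Summed level of the 41 genes (CPM, TMM-scaled, vertical axis from 0) against the share of counts on mitochondrial rRNA (percent, log axis) in each of the 22 libraries, coloured by group. The 6 inhibitor libraries sit at 1816 to 2199 CPM with shares near 0, the WT libraries at 2443 to 2722 CPM with shares above 20%, and 1 library of each KDAC6 line sits apart from the other libraries of its line in share.

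Set directly against KDAC6H216A, KDAC6H611A had 3 members lower and none higher, where 9.93% of all genes were called (5.31% lower). GINS1 stood at 18.2, 12.4, 21.1 and 20.7 CPM in KDAC6H611A and 27.5, 30.7, 30.8 and 32.0 CPM in KDAC6H216A (-0.65 ± 0.14, adjusted p = 0.00833). RFC3 (-0.60 ± 0.11, adjusted p = 0.00439) and MCM10 (-0.57 ± 0.12, adjusted p = 0.00821) were the others. Of the 41 members 37 were below 0 in this comparison, with a median of -0.27 beside 0.01 for all genes. The count rests on single libraries: 12 members were lower without KDAC6H216A replicate 1 (9.68% of all genes lower), 8 without that library and KDAC6H611A replicate 4 together (7.19%), and between 0 and 2 with any other library left out. RFC3 and MCM10 were called lower in both of the fits without replicate 1, at -0.69 and -0.64 in the former and -0.64 and -0.71 in the latter. RFC3 lies on chromosome 13, where the median of all genes tested between these lines was -0.47. MCM10 lies on chromosome 10, where it was -0.03.

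The inhibitors were compared with each other at their different doses, 1 µM for Tubastatin A and 5 µM for PCI-34051, in libraries of like depth and mitochondrial rRNA share. Tubastatin A had 5 members higher and none lower, where 5.65% of all genes were called (3.45% higher), and 4 of the 5 were the deoxynucleotide genes. RRM2 stood at 99.3, 99.3 and 106 CPM with Tubastatin A and 89.7, 85.0 and 70.4 CPM with PCI-34051 (0.30 ± 0.065, adjusted p = 0.00695). RRM1 (0.29 ± 0.055, adjusted p = 0.00252), TYMS (0.26 ± 0.044, adjusted p = 0.00114) and TK1 (0.23 ± 0.052, adjusted p = 0.00816) were higher by like amounts, as was MCM3 (0.21 ± 0.047, adjusted p = 0.00855). These groups did not overlap, with Tubastatin A higher, for 13 members, where 17.9% of all genes did so. No call was held in every fit that left out 1 library: 0 to 4 were called, 0 of them without Tubastatin A replicate 3. For ORC1, POLE and LIG1, among the deepest falls against WT, no difference between the inhibitors was called, with log2 differences of -0.07 ± 0.13 for ORC1, -0.06 ± 0.056 for POLE and 0.0009 ± 0.050 for LIG1.

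PCI-34051 and the KDAC8H143A line, aimed at the same enzyme, gave different levels for 20 members, 7 higher and 13 lower with the inhibitor. Of all genes, 58.2% were called (30.3% higher and 27.8% lower). The largest differences were in POLE (-2.03 ± 0.19, adjusted p = 1.02e-05), CHAF1A (-1.94 ± 0.21, adjusted p = 2.39e-05), LIG1 (-1.39 ± 0.22, adjusted p = 0.000249) and POLD1 (-1.16 ± 0.17, adjusted p = 0.000142), all lower with PCI-34051. MCM6 (1.06 ± 0.13, adjusted p = 5.99e-05), PRIM1 (0.88 ± 0.17, adjusted p = 0.000899), RRM1 (0.82 ± 0.13, adjusted p = 0.000246) and PRIM2 (0.81 ± 0.15, adjusted p = 0.000617) were higher. The GC trend is in this contrast too (r = -0.723 over the members). With a correction for GC content and length 3 members were higher and 11 lower, where 26.3% and 25.6% of all genes were. POLE, CHAF1A, LIG1 and MCM6 stayed called in the same direction (-1.56, -1.41, -0.73 and 0.45). POLD1, PRIM1, RRM1 and PRIM2 were no longer called (-0.24, 0.11, 0.17 and 0.10).

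Other genes of the pathway were read from a list of 31 further replication factors. With Tubastatin A 3 of the 31 rose and 19 fell, with PCI-34051 4 rose and 19 fell, in KDAC8H143A 5 rose and 20 fell, in KDAC6H611A 6 fell, and in KDAC6H216A none was called. Of all genes, 29.3% rose and 28.6% fell with Tubastatin A, 25.5% and 25.6% with PCI-34051 and 31.6% and 26.9% in KDAC8H143A, 6.24% fell in KDAC6H611A and 0.834% were called in KDAC6H216A. The origin firing factor TICRR fell most with both inhibitors (-1.28, adjusted p = 3.88e-12, and -1.35, adjusted p = 7.39e-10), and the checkpoint mediator CLSPN fell as well (-0.90 and -1.09). In KDAC8H143A the replication fork protein DONSON rose (3.71, adjusted p = 2.06e-05) and the origin recognition subunit ORC3 fell (-1.73, adjusted p = 2.90e-05). ORC3 lies on chromosome 6, where the median of all genes tested in this line was -0.39. In KDAC6H611A the helicase MCM8 (-0.64, adjusted p = 0.000159) and the nuclease DNA2 (-0.62, adjusted p = 0.00145) fell. Of 18 genes of G2 and mitosis, 15 fell with Tubastatin A, 17 with PCI-34051, 14 in KDAC8H143A (1 rose) and 6 in KDAC6H611A, and none was called in KDAC6H216A, beside 28.6%, 25.6%, 26.9% and 6.24% of all genes that fell in the first 4 of these. The log2 fold change of the kinesin CENPE was -1.17 and -1.49 with the inhibitors. That of the mitotic kinase TTK was -2.30 in KDAC8H143A and that of the kinetochore protein NDC80 -1.26 in KDAC6H611A. TTK lies on chromosome 6, where the median of all genes tested in KDAC8H143A was -0.39. NDC80 lies on chromosome 18, where the median of all genes tested in KDAC6H611A was -0.76. With the inhibitors, under TMM scaling, most members and most of these G2 and mitosis genes were thus lower in the same libraries. Among the members only 2 fell in KDAC6H611A, and 7 rose and 16 fell in KDAC8H143A. The share of cells in each phase was not measured, and the paper observed no apparent slowing of growth at these inhibitor doses.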

How the data were processed

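RNA from 22 cultures was rRNA-depleted and sequenced as paired ends by the authors, who per the labels used Trimmomatic 0.39, Bowtie2 2.4.5, RSEM 1.3.3 and DESeq2 1.38.2 with GRCh38. The annotation release is not given in the sources used here. The authors deposited RSEM expected counts per gene with 1 column per library (10.6 to 13.5% of values were not whole), along with no other measurement used here. RSEM shares reads between copies and no strand setting was stated.

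Expected counts were rounded, genes kept by edgeR's filterByExpr, scaled by TMM and fitted on the 2 groups compared with edgeR 4.0.16 (glmQLFit, glmQLFTest) in R 4.3.3. P-values were adjusted by Benjamini-Hochberg over all genes tested, with 0.01 as the threshold. The SE was taken as the absolute log2 fold change over the root of F. The fitting code was tested on simulated counts. GC content and length came from GENCODE 44 (56558 of 60675 genes matched) and promoters from RefSeq. CPM levels used TMM factors over all 22 libraries, and 3 counts in a library corresponded to 0.0955 to 0.62 CPM, which bounds counting error only.

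All 41 members were accounted for. Full statistics were given for the 4 largest rises and falls past the threshold in a comparison and for members called in at least 3 of 5 comparisons with WT. Lists of 31 further replication factors, 29 G1/S regulators, 17 genes of nucleotide supply and S-phase chromatin, 18 G2/M genes, and mesenchymal and epithelial markers were counted. Members and lists were chosen with earlier results of these data known. The study's methods call the replicates biological, and groups came from the labels. Alternatives were DESeq2 1.42.0, upper-quartile and total-count scaling, other filters and thresholds, a fit of all 6 groups, removal of mitochondrial genes, a correction for GC content and length (a smooth fit with mgcv 1.9.3), a replicate block, and leaving out each library. Leaving out KDAC6H216A replicate 1 and KDAC6H611A replicate 4 together was added after seeing the data.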

Additional observations from a re-analysis of the deposited data

Results flagged for a closer look

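In 164 groups of 4 libraries (41 genes in 4 groups), 6 held a library far from the other 3 by Dixon's test, where chance gives about 1 in 20. PCNA stood at 67.5 CPM in KDAC6H216A replicate 1 and at 127 to 135 CPM in the others. MCM3 stood at 129 CPM in KDAC8H143A replicate 2 (163 to 166 CPM in the others), and POLA2 at 32.9 CPM in KDAC8H143A replicate 4 (37.6 to 38.4 CPM). In KDAC6H611A replicate 2, GINS4 stood at 12.4 CPM (16.6 to 17.2 CPM) and POLD3 at 17.1 CPM (19.4 to 19.7 CPM). LIG1 stood at 60.6 CPM in WT replicate 1 (65.7 to 66.2 CPM).

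The direct tests between groups found 3 members that differed between KDAC6H611A and KDAC6H216A, 5 between Tubastatin A and PCI-34051, and 20 between PCI-34051 and KDAC8H143A. Of all genes tested, 9.93%, 5.65% and 58.2% were called in these comparisons.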

How the results depend on the processing

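Counts of members called changed with the following choices, with the percentage of all genes called in parentheses. At an adjusted p below 0.05 there were 13 in KDAC6H611A (23%), 11 between the KDAC6 lines (20.8%) and 8 between the inhibitors (13.4%). A log2 change of at least 1 left 0, 5, 2 and 4 in KDAC6H611A, KDAC8H143A, Tubastatin A and PCI-34051 against WT, 0 between the KDAC6 lines, 0 between the inhibitors and 7 between PCI-34051 and KDAC8H143A (5.01%, 33.9%, 14.9%, 13.2%, 5.4%, 0.185% and 40.3% in that order). Total counts gave 1 in KDAC6H216A (3.06%), 0 in KDAC6H611A (6.2%), 18 and 20 with the inhibitors (64% and 61.1%), 0 between the KDAC6 lines (5.22%) and 3 between the inhibitors (5.61%). The fit of all 6 groups gave 9 and 13 with the inhibitors (24.9% and 23.5%), 14 between the KDAC6 lines (18.3%) and 0 between the inhibitors (0.0379%). The correction for GC content and length gave 6 in KDAC6H611A (12.9%) and 6 between the KDAC6 lines (10.4%). Between the KDAC6 lines DESeq2 gave 10 (16.7%), the upper quartile 1 (10.1%) and no filter 5 (5.24%); between the inhibitors the upper quartile gave 3 (5.61%) and no filter 9 (5.69%). Leaving out 1 library gave 0 to 10 in KDAC6H216A (0.189 to 26%), 1 to 4 in KDAC6H611A (7.48 to 19.4%), 20 to 28 in KDAC8H143A (48.3 to 65.2%), 30 to 34 with Tubastatin A (48.3 to 53.8%), 33 to 34 with PCI-34051 (41.6 to 47.9%), 0 to 12 between the KDAC6 lines (5.1 to 19.5%), 0 to 4 between the inhibitors (2.15 to 6.13%) and 16 to 25 between PCI-34051 and KDAC8H143A (46.9 to 65.6%). Without both libraries low in mitochondrial rRNA there were 8 between the KDAC6 lines (13.9%).

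The cause of these changes was not tested. Same-numbered libraries did not deviate together in every pair, so the numbers were not taken as pairs. With the replicate block the counts were 0, 2, 22, 30 and 34 against WT in the order of the heat map, 0 between the KDAC6 lines, 4 between the inhibitors and 19 between PCI-34051 and KDAC8H143A (0.455%, 10.6%, 57.1%, 50.6%, 46.5%, 6.22%, 4.16% and 56% in that order). With the block and the GC correction KDAC8H143A had 14 (47.4%), the KDAC6 lines 1 (5.35%) and the inhibitors 1 (3.56%).

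Directions turned as follows. In KDAC8H143A, CDT1, POLD1 and LIG1 read -0.144, -0.147 and -0.0915 with the GC correction (-0.149, -0.147 and -0.111 with the replicate block as well). With Tubastatin A under total counts ORC6 read 0.109, MCM3 0.142, MCM4 0.0428, GINS2 0.037, PRIM1 0.0652, PRIM2 0.077, POLD1 0.0419, RFC3 0.018 and TYMS 0.167, of which only TYMS was called higher. With PCI-34051 under total counts GINS2 read 0.0294, PRIM2 0.0212 and RRM2 0.0594. Between PCI-34051 and KDAC8H143A, CDT1, POLD3 and E2F1 read 0.265, -0.175 and 0.121 with the GC correction (0.197, -0.0852 and 0.121 with the replicate block as well). Over single genes and settings, 1945 calls kept direction and threshold, 394 lost the threshold and 24 turned. Depth was lowest in WT, which bounds how small a change could be called.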

Other observations

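Of 27 G1/S regulators tested (29 listed), 11 rose and 10 fell with Tubastatin A, 9 rose and 10 fell with PCI-34051, 5 rose and 10 fell in KDAC8H143A, 2 rose and 3 fell in KDAC6H611A, and 1 rose in KDAC6H216A. Of all genes tested, 57.9%, 51.1%, 58.5%, 12.3% and 0.834% were called in these comparisons, so the 15 of 27 regulators called in KDAC8H143A were close to the share of all genes. The D-type cyclin gene CCND2 rose in KDAC8H143A (2.64 on the log2 scale, adjusted p = 3.18e-08), with Tubastatin A (1.67, adjusted p = 4.75e-15) and with PCI-34051 (1.41, adjusted p = 5.33e-12), all by edgeR's quasi-likelihood test. E2F2 (-1.36 and -1.51) and the phosphatase gene CDC25A (-1.10 and -1.25) fell with the inhibitors. The CDK inhibitor gene CDKN1B rose in KDAC6H216A (0.59, adjusted p = 0.0047) and in KDAC6H611A (0.70, adjusted p = 0.00102). The retinoblastoma gene RB1 fell in KDAC6H611A (-0.74) and in KDAC8H143A (-1.45); RB1 lies on chromosome 13, where the median of all genes tested in KDAC6H611A was -0.43.

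Of 17 further genes of nucleotide supply and S-phase chromatin, 6 rose and 8 fell with Tubastatin A, 3 rose and 8 fell with PCI-34051, 1 rose and 10 fell in KDAC8H143A, 1 rose and 3 fell in KDAC6H611A, and none was called in KDAC6H216A, beside the same shares of all genes. RRM2B, the p53-responsive small subunit of ribonucleotide reductase, rose with Tubastatin A (1.24, adjusted p = 2.05e-13) and with PCI-34051 (1.09, adjusted p = 2.91e-11), where RRM1 fell. DTYMK, thymidylate kinase, fell with both (-0.87 and -0.98) and in KDAC6H611A (-0.77, adjusted p = 0.00163). In KDAC8H143A the histone chaperone gene ASF1A (-2.32, adjusted p = 2.36e-06) and the deoxycytidine kinase gene DCK (-1.58, adjusted p = 3.93e-06) fell most. ASF1A lies on chromosome 6 and DCK on chromosome 4, where the medians of all genes tested in this line were -0.39 and -0.35. The values of the list genes were not corrected for GC content or length. They come from fits with every library, so those of the KDAC6 lines include the 2 libraries low in mitochondrial rRNA.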
